A study of Mus musculus with 4 samples.

Results

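The proteasome genes of mouse bone marrow-derived macrophages, primary macrophages grown from marrow cells, were measured by RNA sequencing of libraries from a stranded mRNA kit. They were chosen by name, as all symbols that begin with Psm, then a letter from a to g and a digit, which gave 49 of 23284 symbols. The galectin-1 group (2 libraries) was stimulated with lipopolysaccharide (LPS) at 1 µg/ml for 1 h and then given recombinant mouse galectin-1, a lectin that binds galactosides, for 24 h. The vehicle group (2 libraries) received the same LPS and then phosphate-buffered saline for 24 h. All cells came from wild type mice, the sources used here give no galectin-1 dose, and no culture without LPS was analysed here, so induction by LPS itself cannot be read from these data. The labels do not say whether replicates were separate cultures, so each p-value covers the spread between these 4 samples alone, which may be technical.

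The proteasome is the large protease that degrades ubiquitin-tagged proteins in the cytosol and nucleus. Its 20S core is a barrel of alpha and beta rings, the 19S particle on its ends unfolds substrates with a ring of ATPases, and only some of the beta subunits cut peptide bonds. Interferons and other inflammatory signals induce alternative catalytic subunits that take the place of the constitutive ones in newly built cores, together with the PA28 activator. The resulting immunoproteasome is best known for making peptides that MHC class I molecules present.

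Of the 49 symbols, 48 name subunits, activators, inhibitors or assembly factors of the proteasome. The remaining symbol, Psmc3ip, names a factor of meiotic recombination that shares only the prefix. Testing required that a gene average 1 FPKM or more across the libraries, and 46 symbols reached that level. The others were Psmc3ip with 0.668 FPKM, the testis subunit gene Psma8 with 0.269 FPKM and the thymus subunit gene Psmb11 with 0.408 FPKM, each as a mean over the 4 libraries. FPKM is scaled to transcript length, so levels of different genes can be set side by side.

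Library totals were 557661 and 555507 FPKM with galectin-1 and 553191 and 541138 FPKM with vehicle. Relative to vehicle replicate 1, depth was 1.02 and 0.876 for galectin-1 replicates 1 and 2 and 0.956 for vehicle replicate 2, while the absolute depth is unknown. Correlations of log2 values over the tested genes were 0.988 within galectin-1, 0.983 within vehicle and 0.979 to 0.986 across the groups. The cells carried macrophage markers, with Lyz2 (lysozyme) at 6269 and 6223 FPKM with galectin-1 and 5761 and 5642 FPKM with vehicle. The T cell genes Cd3e and Cd3g, the NK and T cell gene Nkg7 and the neutrophil gene Elane were listed at 0 in all 4 libraries.

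The inducible genes were among the most abundant proteasome transcripts of these macrophages. Psme2, which encodes the beta subunit of PA28, stood highest with a mean of 684 FPKM over the 4 libraries. Psme1, the alpha subunit of PA28, followed with 299 FPKM, and Psmb8, the inducible chymotrypsin-like subunit beta5i, with 295 FPKM. Psme1 and Psmb8 overlapped in range and cannot be put in order. Next came Psmd8, a 19S lid subunit gene, with 210.0 FPKM, the constitutive Psmb6 with 197 FPKM and the inducible Psmb10 with 196 FPKM, whose ranges also overlapped, and then Psmb9 with 153 FPKM.

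Most structural subunits lay lower than the inducible genes, but Psmd8 and Psmb6 lay above Psmb9 and overlapped Psmb10 in range. Sem1, a 19S subunit gene outside the naming rule (listed as Shfm1), had a mean of 349 FPKM, above all inducible genes but Psme2. The 7 tested alpha subunit genes had means of 51.4 to 142 FPKM with a median of 93.7 FPKM, and the 7 constitutive beta genes 60.9 to 197 FPKM with a median of 96.5 FPKM. The 6 ATPase genes of the 19S particle lay between 38.7 and 52.9 FPKM, the tightest band of these 4 groups, and the 11 non-ATPase genes between 27.8 and 210.0 FPKM with a median of 44.5 FPKM. Of the chaperones that build the 20S core, Psmg1 to Psmg4 were scarce, at 4.03 to 16.8 FPKM. Pomp, a 20S assembly factor outside the naming rule, was not, with a mean of 131 FPKM. All 49 symbols together made up 0.746% and 0.748% of the summed FPKM of the galectin-1 libraries and 0.741% and 0.765% of that of the vehicle libraries, so the groups overlapped in this share.

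**Figure D1:**
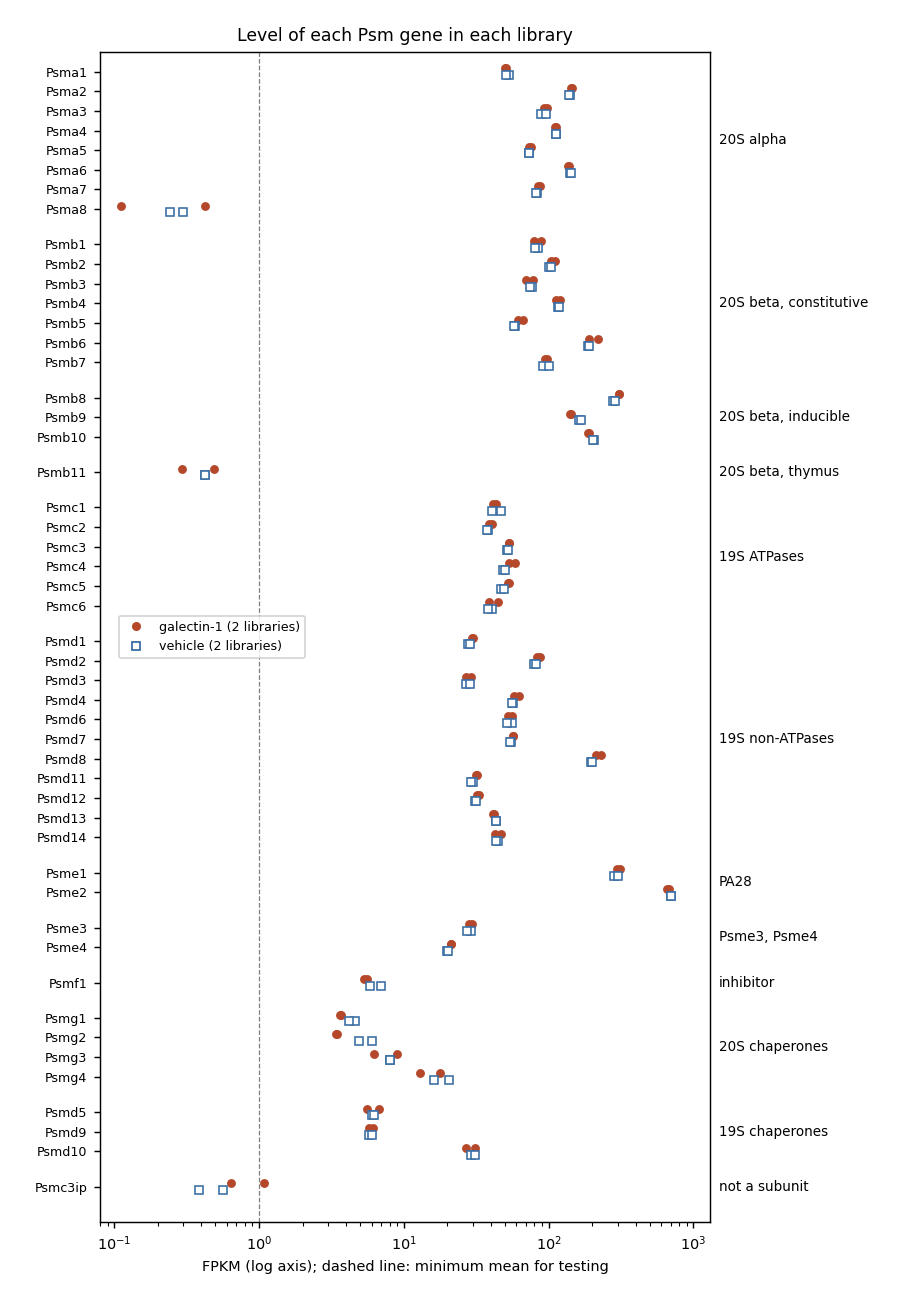
FPKM of all 49 symbols in each library on a log axis, with filled circles for galectin-1, open squares for vehicle and genes ordered by role. Psme2, Psme1 and Psmb8 lie farthest to the right, the Psmg chaperones lie between 4.03 and 16.8 FPKM as means, and Psma8, Psmb11 and Psmc3ip have means below the dashed line at 1 FPKM.

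The comparison of galectin-1 with vehicle asks how the lectin alters LPS-stimulated macrophages. No proteasome gene passed the threshold: of 46 tested, 0 were higher and 0 lower with galectin-1 at an adjusted p under 0.05 in limma, fitted over all 9380 tested genes, of which 1.19% were called, 0.608% higher and 0.586% lower. At an unadjusted p under 0.05 in limma there were 9 of 46, or 19.6%, beside 23.2% of all tested genes. Without the trend of the variance in limma the count was also 0 (5 at an unadjusted p under 0.05). Psmb9 came nearest, with an adjusted p of 0.0555, followed by Psmg2 with 0.0708. Differences are given on the log2(FPKM + 1) scale, which understates those of low genes.

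Differences were small in both directions. Across the 46 genes the median difference was 0.03 on that scale, with 29 positive and 17 negative. Over all tested genes it was 0.0024, with 4754 positive and 4626 negative. With a minimum mean of 5 FPKM the median was 0.034 for the members and 0.020 for all tested genes. Quantile normalization gave 23 positive and 23 negative members. The median of the members was 0.0086 without galectin-1 replicate 1 and 0.048 without galectin-1 replicate 2. The galectin-1 and vehicle libraries did not overlap for 28 of the 46 genes, or 60.9%, beside 55.4% of all tested genes. For the 31 constitutive subunits of the core and the 19S particle, each 95% interval of the difference lay between -0.21 and 0.31, that is, between 0.864-fold and 1.24-fold. These intervals are for single genes and are not widened for the number of genes.

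**Figure D2:**
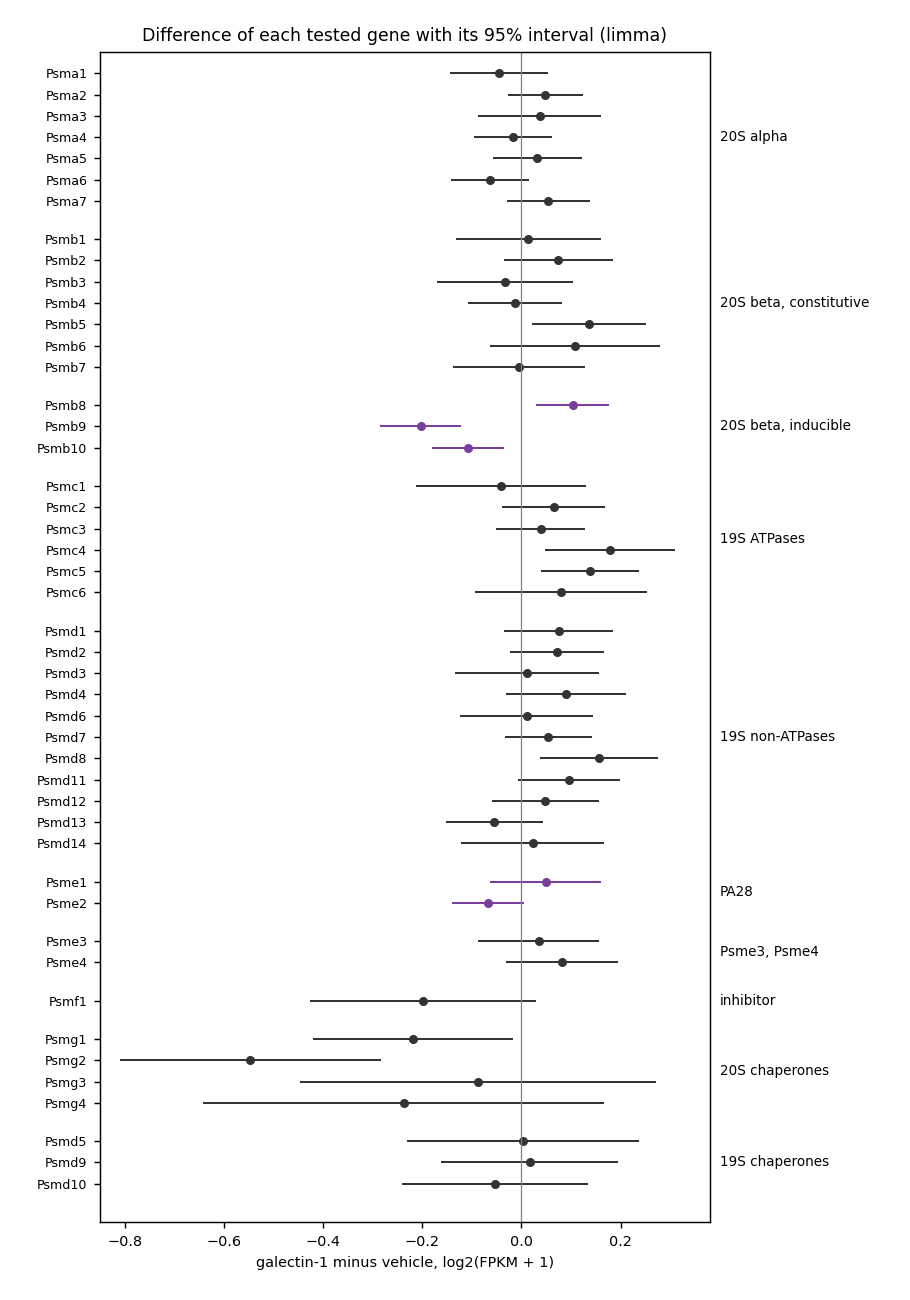
Difference of each of the 46 tested genes between galectin-1 and vehicle in log2(FPKM + 1), with its 95% interval from limma, grouped by role; inducible genes are in purple. Psmb9 and Psmb10 lie to the left of 0 and Psmb8 to the right, and the widest interval is that of Psmg4. Psmg2 has the lowest difference, -0.55.

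The inducible catalytic subunit genes differed in direction, and none passed the threshold. Psmb9 encodes beta1i, also called LMP2, which takes the place of Psmb6's product. It had 142 and 143 FPKM with galectin-1, against 161 and 167 FPKM with vehicle. Both galectin-1 libraries lay below both vehicle libraries. The difference was -0.20 (standard error 0.03, 95% interval -0.28 to -0.12), a 13.2% lower level (percent change -13.16), with an adjusted p of 0.0555 in limma.

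Whether Psmb9 passed depended on the genes tested and on the model of the spread. With a minimum mean of 5 FPKM, Psmb9 passed with an adjusted p of 0.0425 in limma. It also passed, with 0.0272, when small RNA entries were left out, an alternative chosen after the data were seen. It passed with 0.0411 in limma with the replicate number as a block, although the labels do not say whether equal numbers pair samples. It did not pass with no filter on low genes (adjusted p = 0.138 in limma) or without the trend of the variance (0.157). Leaving out a library left a difference of -0.23 to -0.18 for Psmb9. In those fits 1 group has a single library, which is assumed to vary like the pair of the other group, and the lowest adjusted p among the 46 genes was 0.169 to 0.228 in limma.

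Psmb10 encodes beta2i, also called MECL-1, the inducible trypsin-like subunit. It had 188 and 189 FPKM with galectin-1, against 205 and 202 FPKM with vehicle. The groups did not overlap, with galectin-1 below vehicle. The difference was -0.11 (standard error 0.03) with an adjusted p of 0.115 in limma.

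Psmb8 encodes beta5i, also called LMP7, and differed in the other direction. It had 306 and 306 FPKM with galectin-1, against 281 and 289 FPKM with vehicle. Both galectin-1 libraries lay above both vehicle libraries. The difference was 0.10 (standard error 0.03), and the adjusted p was 0.123 in limma.

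Psmb9 and Psmb8 are neighbours in the class II region of the mouse MHC. In GRCm38.p6 Psmb9 lies on the minus strand at chr17:34182030-34187330 and Psmb8 on the plus strand at chr17:34198195-34201454, with 10.9 kb between them. Tap1, which encodes a chain of the peptide transporter, lies in that gap, starts 225 bases from Psmb9 and is read in the opposite direction. Tap2, the other chain, lies 3024 bases beyond Psmb8. Tap1 had 270 and 282 FPKM with galectin-1, against 285 and 291 FPKM with vehicle (difference -0.06, limma adjusted p = 0.329). Tap2 had 113 and 118 FPKM with galectin-1, against 108 and 106 FPKM with vehicle (difference 0.11, limma adjusted p = 0.163). The groups did not overlap for any of these genes, with galectin-1 below vehicle for Psmb9 and Tap1 and above it for Psmb8 and Tap2. Groups without overlap were common, at 55.4% of all tested genes, and none of these 4 genes passed the threshold. The ratio of Psmb8 to Psmb9, singled out after the values were seen, was 2.16 and 2.14 with galectin-1 and 1.74 and 1.73 with vehicle.

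The 100 bases before the RefSeq start of the inducible catalytic subunit genes and of 2 of their constitutive partners are shown because these genes are exchanged for each other and yet differ in the signals they are known to follow. All are written 5′ to 3′ on the gene's strand, from RefSeq, build GRCm38.p6, with motif matches in capitals. For Psmb6 the start of the promoter entry lies inside the gene as listed, so the last 33 bases of its stretch, motif included, are within the gene.
Psmb8, chr17:34198095-34198194, plus strand: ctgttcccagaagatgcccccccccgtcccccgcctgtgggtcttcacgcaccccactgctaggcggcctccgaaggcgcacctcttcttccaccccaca
Psmb9, chr17:34187331-34187430, minus strand: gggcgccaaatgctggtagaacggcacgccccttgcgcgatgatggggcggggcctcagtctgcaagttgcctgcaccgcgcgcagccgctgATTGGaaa
Psmb10, chr8:105938393-105938492, minus strand: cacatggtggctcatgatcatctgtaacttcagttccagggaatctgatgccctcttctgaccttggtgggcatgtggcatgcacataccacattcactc
Psmb5, chr14:54617996-54618095, minus strand: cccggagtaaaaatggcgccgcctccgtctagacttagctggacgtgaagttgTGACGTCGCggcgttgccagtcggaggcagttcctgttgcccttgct
Psmb6, chr11:70525257-70525356, plus strand: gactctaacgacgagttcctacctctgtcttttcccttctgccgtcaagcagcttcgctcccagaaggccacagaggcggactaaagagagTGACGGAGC

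Motifs were searched on both strands in the 250 bases before each start, for which 41 members had 44 entries. The capitals mark a CCAAT box (the NF-Y motif, on the opposite strand) in Psmb9, and an antioxidant response element (TGACNNNGC, bound by NRF1 and NRF2) in Psmb5 and Psmb6. The antioxidant element was found in 5 of 44 member entries, or 11.4%, beside 10.2% of all 32851 promoter entries. The CCAAT box was found in 34.1% of member entries, beside 33.8% of all. An interferon-stimulated response element (GAAANNGAAA) was found in 3 member entries, those of Psmb3, Psmd4 and Psmd9, or 6.82%, beside 2.98% of all. It was found in 0 of the 6 entries of the 5 inducible genes. None of these 3 motifs has a match in the windows of Psmb8 and Psmb10. The gamma-activated site, another interferon motif, was not searched. A match describes letters only.

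**Figure D3:**
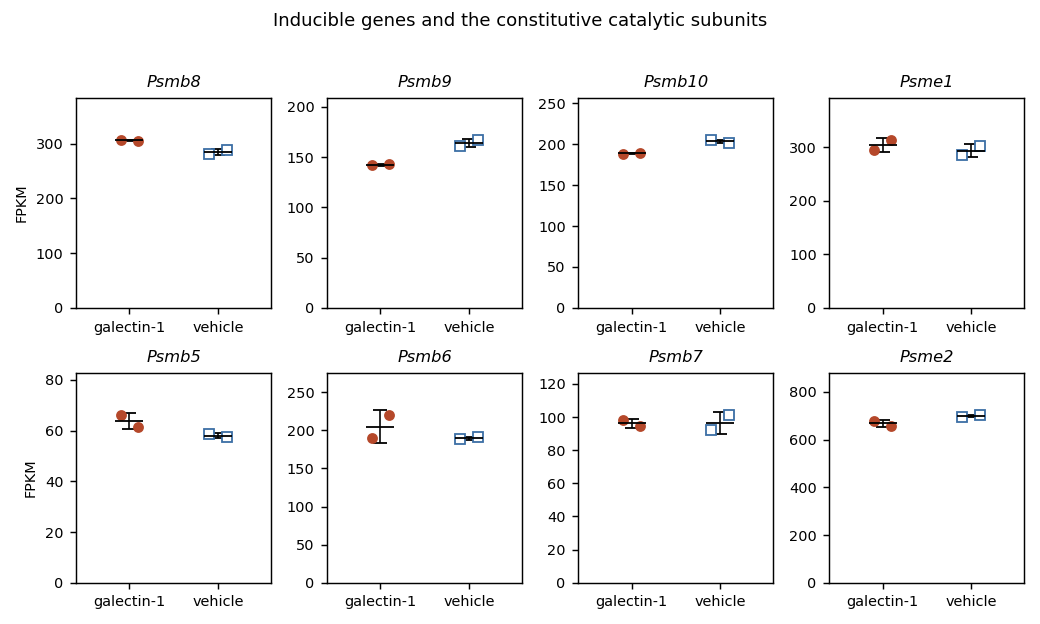
FPKM of the inducible subunits Psmb8, Psmb9 and Psmb10 above the constitutive Psmb5, Psmb6 and Psmb7 they replace, and of the PA28 genes Psme1 and Psme2, per library with mean and SD (n = 2 per group), each axis starting at 0. Psmb9 sits at 142 and 143 FPKM with galectin-1, below both vehicle libraries, and Psmb8 at 306 and 306 FPKM, above both.

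The constitutive catalytic subunits were measured beside them. Psmb5 (beta5, chymotrypsin-like) had 66.2 and 61.6 FPKM with galectin-1, against 58.6 and 57.4 FPKM with vehicle. The galectin-1 libraries lay above the vehicle libraries, with a difference of 0.14 (standard error 0.05, limma adjusted p = 0.162), or 0.09 without galectin-1 replicate 1. Psmb6 (beta1, caspase-like) had 190 and 220.1 FPKM with galectin-1, against 188 and 191 FPKM with vehicle. Here the groups overlapped, since galectin-1 replicate 1 lay within the vehicle range, and galectin-1 replicate 2 alone stood high. The difference was 0.11 (limma adjusted p = 0.397), or 0.00043 without that library and 0.21 without galectin-1 replicate 1. Psmb7 (beta2, trypsin-like) had 98.2 and 94.4 FPKM with galectin-1, against 92.0 and 101 FPKM with vehicle, and the groups overlapped. Pseudogenes of Psmb5, Psmb6 and Psmb7 are annotated elsewhere in the genome, and the sources used here do not say how reads were divided between genes and copies.

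At the level of mRNA, each pair was read as the inducible share of its summed FPKM. Which subunits were built into proteasome cores was not measured. Psmb8 made up 82.2% and 83.2% of the summed FPKM of Psmb8 and Psmb5 with galectin-1, against 82.7% and 83.4% with vehicle. These ranges overlapped, and the log2 ratio differed by -0.03. Psmb9 made up 42.8% and 39.4% of Psmb9 plus Psmb6 with galectin-1, against 46.2% and 46.6% with vehicle. Both galectin-1 libraries lay below both vehicle libraries, the log2 ratio differed by -0.31, and that difference was -0.21 without galectin-1 replicate 2, in which Psmb6 stood high. Psmb10 made up 65.7% and 66.7% of Psmb10 plus Psmb7 with galectin-1, against 69.0% and 66.6% with vehicle, with overlap. An exact permutation test of the log2 ratios, 2-sided, gave p = 0.667, 0.333 and 0.667 for Psmb8, Psmb9 and Psmb10 against their partners, or 0.667 for each after Benjamini-Hochberg adjustment over the 3 pairs. With 2 libraries per group that test cannot go below 0.333.

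The 5 inducible genes were also set against all constitutive subunits, as means. The mean log2(FPKM + 1) of Psmb8, Psmb9, Psmb10, Psme1 and Psme2 exceeded that of the 31 constitutive subunits by 2.02 and 2.05 with galectin-1, against 2.11 and 2.14 with vehicle. The groups did not overlap, and the difference between them was -0.09, in which the scaling of a library cancels. It was -0.08 after quantile normalization and lay between -0.11 and -0.07 when a library was left out. It was made up of a difference of -0.05 in the mean of the 5 inducible genes and of 0.04 in that of the 31 constitutive subunits. Of the inducible genes 3 were negative, while Psmb8 and Psme1 were positive and lay above the constitutive mean. This contrast was not given a p-value, since the members were chosen with results known.

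**Figure D4:**
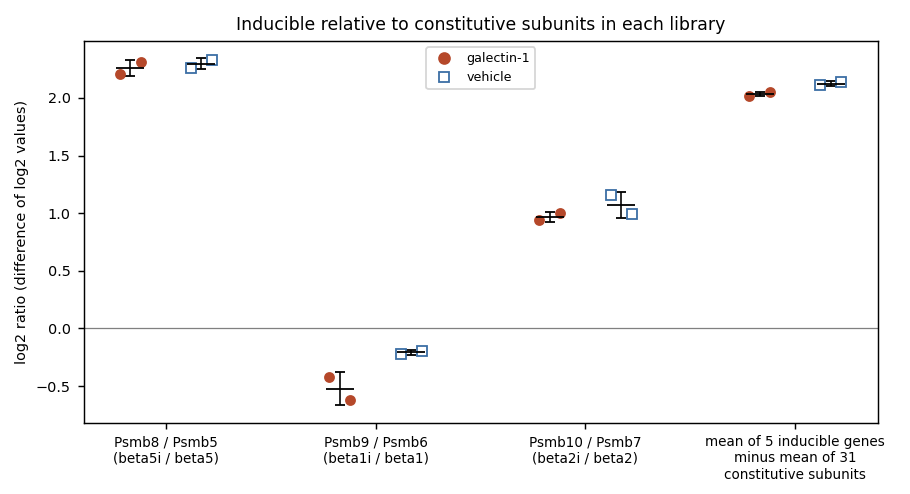
Log2 ratio of each inducible subunit to the constitutive subunit it replaces, and the mean of the 5 inducible genes minus that of the 31 constitutive subunits, per library with mean and SD (n = 2 per group), galectin-1 left of vehicle. The groups overlap for Psmb8/Psmb5 and Psmb10/Psmb7 and lie apart for Psmb9/Psmb6 and for the mean of the inducible genes.

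The PA28 genes differed little. Psme1 had 295 and 314 FPKM with galectin-1, against 285 and 303 FPKM with vehicle. The groups overlapped (difference 0.05, limma adjusted p = 0.547), and the difference was 0.0052 without galectin-1 replicate 2, 0.0067 without vehicle replicate 1 and 0.09 with either of the other libraries left out alone. Psme2 had 678 and 657 FPKM with galectin-1, against 696 and 703 FPKM with vehicle. Both galectin-1 libraries lay below both vehicle libraries (difference -0.07, standard error 0.03, limma adjusted p = 0.227). The genes lie 5912 bases apart on chromosome 14, and their products form 1 ring. A near copy of Psme2, Psme2b, is annotated on chromosome 11 and has no symbol of its own among the values, so the Psme2 values may hold reads of both.

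In the alpha ring, the gate of the core, 0 of 7 tested genes passed the threshold, 4 differences were positive and 3 negative, and quantile normalization gave 2 positive and 5 negative. Psma7 had 86.7 and 85.2 FPKM with galectin-1, against 83.3 and 82.1 FPKM with vehicle, the highest difference of the ring at 0.05. Psma6 had 138 and 135 FPKM with galectin-1, against 142 and 144 FPKM with vehicle, the lowest at -0.06. Neither pair of groups overlapped, and the adjusted p was 0.383 and 0.291 in limma. Of the 7 constitutive beta genes 0 passed, 4 differences were positive and 3 negative, or 3 and 4 after quantile normalization. Psmb5 had the highest difference and Psmb3, a non-catalytic subunit, the lowest at -0.03, with 77.7 and 70.2 FPKM with galectin-1, against 76.8 and 74.3 FPKM with vehicle.

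The 19S particle leaned towards higher values with galectin-1 without a call. Of its 17 subunit genes within the naming rule, which leaves out Adrm1 and Sem1, 0 passed the threshold. Of their differences 15 were positive and 2 negative, with a median of 0.06, beside 0.0024 over all tested genes. With a minimum mean of 5 FPKM the median over all tested genes was 0.020. Quantile normalization left 12 positive and leaving out galectin-1 replicate 1 left 11. Psmc4, an ATPase of the unfolding ring (Rpt3), had 53.7 and 58.8 FPKM with galectin-1, against 48.9 and 50.1 FPKM with vehicle. Psmc5, another ATPase of that ring (Rpt6), had 52.6 and 53.5 FPKM with galectin-1, against 47.3 and 49.1 FPKM with vehicle. Psmd8, a lid subunit (Rpn12), had 212 and 231 FPKM with galectin-1, against 196 and 201 FPKM with vehicle. In these 3 genes the galectin-1 libraries lay above the vehicle libraries, with differences of 0.18, 0.14 and 0.16 and adjusted p of 0.130, 0.125 and 0.136 in limma. Without galectin-1 replicate 2 the difference was 0.11 for Psmc4 and 0.09 for Psmd8.

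The lowest differences of the particle were those of Psmd13 and Psmc1. Psmd13, a lid subunit (Rpn9), had 42.3 and 41.1 FPKM with galectin-1, against 43.1 and 43.6 FPKM with vehicle, at -0.06. Psmc1, an ATPase (Rpt2), had 41.6 and 43.5 FPKM with galectin-1, against 46.9 and 40.9 FPKM with vehicle, at -0.04, where the vehicle libraries enclosed the galectin-1 libraries. The chaperones that assemble the 19S base, Psmd5, Psmd9 and Psmd10, overlapped between the groups, with differences of 0.0030, 0.02 and -0.05.

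Of the chaperones of the 20S core, Psmg2, Psmg4 and Psmg1 held the 3 lowest differences of the 46 genes. These proteins pair up to guide the alpha ring together and leave the finished core. Psmg2 had 3.45 and 3.39 FPKM with galectin-1, against 6.08 and 4.88 FPKM with vehicle. Both galectin-1 libraries lay below both vehicle libraries. The difference was -0.55 (standard error 0.11, 95% interval -0.81 to -0.29) with an adjusted p of 0.0708 in limma. Psmg2 passed with 0.0370 when small RNA entries were left out, an alternative chosen after the data were seen, and with 0.0471 with the replicate block. It did not pass with no filter (limma adjusted p = 0.183) or without the trend (0.138). Its mean of 4.45 FPKM put it below a minimum of 5 FPKM. Leaving out a library left a difference of -0.68 to -0.41. Psmg1, whose product pairs with that of Psmg2, had 3.68 and 3.61 FPKM with galectin-1, against 4.63 and 4.20 FPKM with vehicle. The groups did not overlap, and the difference was -0.22 (standard error 0.08, limma adjusted p = 0.186).

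The other chaperone pair was noisier. Psmg3 had 8.96 and 6.27 FPKM with galectin-1, against 8.09 and 7.996 FPKM with vehicle, and its difference of -0.09 became 0.14 without galectin-1 replicate 2. Psmg4 had 17.8 and 13.004 FPKM with galectin-1, against 20.5 and 16.1 FPKM with vehicle, a difference of -0.24 with overlap and an adjusted p of 0.431 in limma. All 4 differences of these chaperones were negative, with a median of -0.23, also under both other scalings, and 3 of 4 were negative without galectin-1 replicate 2. Psmg4 also moved, to -0.07 without vehicle replicate 1 and to -0.03 without galectin-1 replicate 2. Galectin-1 replicate 2, the library with the lowest relative depth (0.876), held the lowest value of each of the 4 genes. The part of depth in these differences was not tested.

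**Figure D5:**
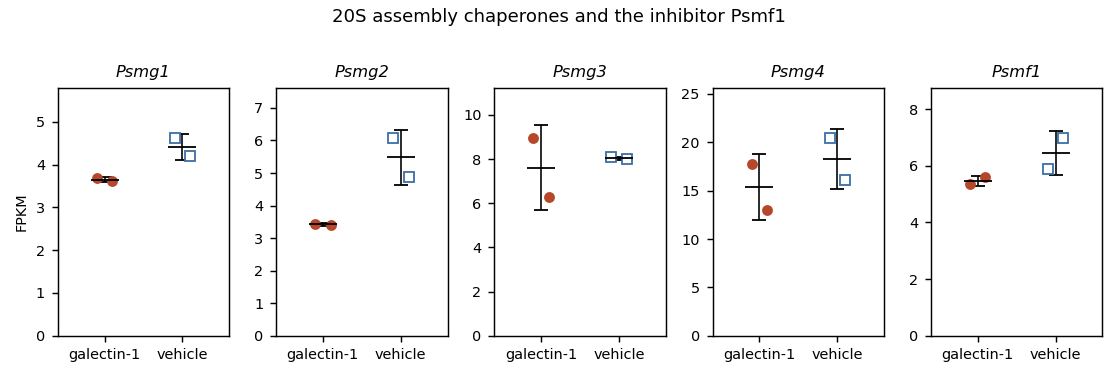
FPKM of the 20S assembly chaperones Psmg1 to Psmg4 and of the inhibitor gene Psmf1 per library, with mean and SD (n = 2 per group) and axes from 0. Galectin-1 libraries lie below vehicle libraries for Psmg1, Psmg2 and Psmf1, and the groups overlap for Psmg3 and Psmg4.

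Psmf1, which encodes the core inhibitor PI31, had 5.34 and 5.59 FPKM with galectin-1, against 5.89 and 6.99 FPKM with vehicle. The groups did not overlap (difference -0.20, standard error 0.09, limma adjusted p = 0.266), and leaving out a vehicle library moved the difference to -0.31 (replicate 1 left out) or -0.09 (replicate 2 left out). Psme3, the gene of the nuclear activator PA28 gamma, had 29.4 and 28.4 FPKM with galectin-1, against 28.9 and 27.4 FPKM with vehicle with overlap (difference 0.04, limma adjusted p = 0.705). Psme4, which encodes the single-chain activator PA200, had 21.1 and 21.2 FPKM with galectin-1, against 19.8 and 20.1 FPKM with vehicle without overlap (difference 0.08, limma adjusted p = 0.340).

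Partners of the proteasome outside the naming rule also gave no call. Of 13 tested associated factors 0 passed the threshold in limma (1 at an unadjusted p under 0.05), with 6 positive and 7 negative differences. Adrm1, the 19S ubiquitin receptor Rpn13, had 40.0 and 43.9 FPKM with galectin-1, against 35.0 and 37.1 FPKM with vehicle, a difference of 0.21 without overlap (limma adjusted p = 0.1195). Zfand5, whose product stimulates the 26S proteasome, had 11.2 and 10.5 FPKM with galectin-1, against 11.9 and 12.0 FPKM with vehicle, a difference of -0.13 without overlap (limma adjusted p = 0.255).

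Of 4 genes tied to transcription of constitutive subunits 0 passed in limma (2 at an unadjusted p under 0.05). Nfe2l2 (NRF2) had 49.9 and 51.3 FPKM with galectin-1, against 46.3 and 44.6 FPKM with vehicle, a difference of 0.15 (limma adjusted p = 0.113). Ddi2, the protease that activates the proteasome regulator NRF1, had 3.64 and 3.52 FPKM with galectin-1, against 4.53 and 4.33 FPKM with vehicle, a difference of -0.25 (limma adjusted p = 0.142). Neither gene's groups overlapped.

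Of 6 tested regulators of the inducible subunits 0 passed in limma (1 at an unadjusted p under 0.05). Irf1, the interferon regulatory factor that drives Psmb9, had 664 and 661 FPKM with galectin-1, against 684 and 661 FPKM with vehicle, a difference of -0.02 (limma adjusted p = 0.705). Nlrc5, the transactivator of MHC class I genes, had 84.1 and 86.6 FPKM with galectin-1, against 88.3 and 94.7 FPKM with vehicle, a difference of -0.10 without overlap (limma adjusted p = 0.259). Ifnb1, encoding interferon beta, had 15.0 and 16.9 FPKM with galectin-1, against 14.5 and 12.9 FPKM with vehicle, a difference of 0.21 (limma adjusted p = 0.201). Ifng was near the floor, at 0.210 and 0 FPKM with galectin-1 and 0.144 and 0.0743 FPKM with vehicle.

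Of 7 ubiquitin and E1 enzyme genes 0 passed in limma (1 at an unadjusted p under 0.05). The E1 gene Uba6 and Uba7, the E1 of the interferon-induced modifier ISG15, had differences of -0.16 and -0.13 without overlap (limma adjusted p = 0.145 and 0.230). Of 9 genes of MHC class I peptide supply 0 passed in limma (2 at an unadjusted p under 0.05). The light chain gene B2m had 6452 and 6547 FPKM with galectin-1, against 6129 and 6104 FPKM with vehicle, a difference of 0.09 (limma adjusted p = 0.1204).

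Markers of other cells and of RNA quality were read beside these values. In bulk samples, fewer cells of a type and less RNA per cell cannot be told apart. Among the 6 markers of dendritic cells, 2 were tested and Fscn1 (fascin, which bundles actin) fell (difference -0.47, limma adjusted p = 0.0425). Their summed level was 10.0 and 10.4 FPKM with galectin-1, against 13.7 and 13.5 FPKM with vehicle. Most of it was Fscn1, with 7.84 and 8.18 FPKM with galectin-1, against 11.3 and 11.7 FPKM with vehicle. Zbtb46 went the other way near the floor, at 0.296 and 0.320 FPKM with galectin-1 and 0.249 and 0.0822 FPKM with vehicle. Ccr7, Flt3, Xcr1 and Clec9a overlapped between the groups, and the defining marker Flt3 was at most 0.0478 FPKM. The 4 tested of 6 fibroblast markers were positive and none passed in limma (1 at an unadjusted p under 0.05), with sums of 17.6 and 17.0 FPKM with galectin-1 and 14.1 and 14.02 FPKM with vehicle.

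All 8 macrophage markers were tested, and 7 were positive. None passed in limma, but 6 of the 8 had an unadjusted p under 0.05, beside 23.2% of all tested genes. Csf1r had the smallest p, with a difference of 0.15 (limma adjusted p = 0.0614). Mertk alone was negative, with a difference of -0.17 (limma adjusted p = 0.167). The summed level of the 8 markers was 9138 and 9139 FPKM with galectin-1 and 8453 and 8403 FPKM with vehicle. Sums stayed low for the T and NK cell list (3.68 and 3.51 FPKM with galectin-1, 3.72 and 4.24 FPKM with vehicle), of which only Cd4 was tested. They were also low for neutrophils (2.31 and 1.38 FPKM with galectin-1, 2.92 and 1.34 FPKM with vehicle) and for B cells (0.283 and 0.200 FPKM with galectin-1, 0.167 and 0.0401 FPKM with vehicle). The nuclear RNA Neat1 fell (difference -1.17, limma adjusted p = 0.00174), with 44.9 and 44.2 FPKM with galectin-1 and 97.1 and 106 FPKM with vehicle. Malat1, the other nuclear RNA listed, had 66.9 and 78.7 FPKM with galectin-1, against 94.5 and 96.2 FPKM with vehicle, without overlap (difference -0.39, limma adjusted p = 0.0694). The part of these markers in the differences of the proteasome genes was not tested.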

How the data were processed

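The authors deposited FPKM, which divides fragments by transcript length and library size, for each symbol in each library. Cufflinks 2.2.1, TopHat2 2.0.13, SAMtools 0.1.19, Bowtie2 2.2.3 and the build mm10 are listed, without roles, per the submitters' processing notes. The sources used here do not state the annotation, the strand setting or how reads with several matches were treated. Groups and replicate numbers came from the sample titles. Values were taken as log2(FPKM + 1), and the 9380 of 23284 symbols with a mean of at least 1 FPKM were fitted with limma 3.58.1 in R 4.3.3 (empirical Bayes with a mean-variance trend, 2 residual and 3.89 prior degrees of freedom, 2-sided p, Benjamini-Hochberg adjustment over all 9380, threshold 0.05). The fit was tried on simulated data. No 2 libraries held identical values. Relative depth was read from the most frequent FPKM ratio of low genes. The 49 symbols and the gene lists were chosen with earlier results of these data known. Named genes were the inducible genes and their partners, members of smallest p and the extremes of each role. In other lists they were called genes and, apart from the cell type markers, the 2 of smallest p. Tap1, Irf1, Ifng and the other cell type markers named were added with their values known. Coordinates and promoters are RefSeq's, GRCm38.p6, the assembly of mm10; all 49 symbols matched. The alternatives were another pseudocount, 2 other filters, 2 scalings, no trend, a replicate block and leaving out each library. An item withheld for evaluation is not reported here.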

Additional observations from a re-analysis of the deposited data

How the results depend on the processing

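Of 310 values for 26 named genes under 12 alternatives, 293 kept their direction and side of the threshold. The other filters, leaving out small RNA entries, dropping the trend and the replicate block cannot change a difference. Direction could therefore change only under the other pseudocount, the scalings and the leaving out of a library. Psmb9 and Psmg2 came under the threshold in 5 values. Psmb9 had limma adjusted p of 0.0425 (minimum of 5 FPKM), 0.0411 (replicate block) and 0.0272 (without small RNA entries). Psmg2 had 0.0471 (block) and 0.0370 (without small RNA entries) in limma. Thus the count of members called rose from 0 to 1 with a minimum of 5 FPKM and to 2 with the block or without small RNA entries. Each called member was lower with galectin-1. Genes called in all, 57 higher and 55 lower, became 127 and 99 with that minimum, 1 and 2 with no filter, 24 higher after quantile normalization, 1 and 1 without the trend, 191 and 177 without small RNA entries, and, leaving out a library, 4 to 9 higher and 3 to 12 lower. The replicate block gave 123 and 117. Same-numbered libraries deviated together by r = 0.01 over the tested genes (0.0114). The labels do not say whether equal numbers pair samples. This correlation cannot settle it, since pairing may affect only some genes. Quantile normalization moved the medians to 0.0023 (members), -0.11 (inducible genes) and 0.017 (constitutive subunits), and the last was 0.025 to 0.055 when a library was left out. The log2 ratio to the constitutive partner then ranged over -0.085 to 0.015 for Psmb8, -0.415 to -0.211 for Psmb9 and -0.184 to -0.023 for Psmb10. Direction reversed for Psmd5 under median ratio scaling (-0.0025). Leaving out a library gave ranges that crossed 0 for Psmd5 (-0.113 to 0.119), Psmd9 (-0.024 to 0.057), Psmd10 (-0.156 to 0.047), Psmc1 (-0.137 to 0.055), Psmb3 (-0.106 to 0.039), Psmb7 (-0.073 to 0.064), Psme3 (-0.0027 to 0.073) and Psmg3 (-0.314 to 0.14). The cause was not tested. The absolute depth is unknown, so the counting error of single values cannot be given.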
